A study of Mus musculus with 17 samples.

Results

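The genes described here are 10 transcripts that cells raise in response to mitogens, most of which then restrain the signal that raised them. They are the dual-specificity phosphatases Dusp4, Dusp5 and Dusp6, the Sprouty family members Spry1, Spry2 and Spry4, the Sprouty-related Spred1, the ETS transcription factors Etv4 and Etv5, and the nuclear and cytoplasmic protein Phlda1. They were taken by symbol from a list. All 10 were found, among 26422 gene symbols in the deposited count tables, and each of the 17 tables lists all 10.

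A growth factor such as EGF binds its receptor tyrosine kinase and activates Ras, the RAF and MEK kinases and finally ERK, which enters the nucleus and induces a set of target genes. Several of those targets feed back on the cascade: the Dusp products dephosphorylate ERK or related kinases, Sprouty and Spred proteins act between the receptor and RAF, and Etv4 and Etv5 carry part of the transcriptional response. In the intestinal epithelium EGF and ERK signalling are known for sustaining the proliferation of crypt stem and progenitor cells, and Phlda1 has been used as a marker of crypt stem cells.

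The data are single-cell RNA sequencing libraries (Seq-Well S3) of organoids grown from the small intestinal crypts of unmodified mice (strain C57BL/6, males and females aged 1 to 6 months). Stem-cell-enriched organoids were kept in ENR+CV medium (EGF, Noggin and R-spondin 1 with the GSK3 inhibitor CHIR99021 and valproic acid) and sampled at day 0, and others were moved to ENR+CD medium (ENR with CHIR99021 and the gamma-secretase inhibitor DAPT), in which Paneth cells are enriched, and sampled from day 0.25 to day 6. The 3 groups are ENR+CV at day 0 (2 libraries), ENR+CD as control (7 libraries: days 0.25, 1, 2, 3 and 4 with 1 each, and day 6 with 2) and ENR+CD with 160 nM KPT-330 (8 libraries: days 0.25, 1, 2 and 4 with 1 each, and days 3 and 6 with 2 each). All groups received EGF and R-spondin 1 and all carried CHIR99021, so no group shows these genes without added EGF. KPT-330 is a small molecule that inhibits the nuclear export receptor XPO1. Each sample was a pool of organoids. The study states that its experiments had independent biological replicates, with single-cell RNA sequencing as the exception. What the replicate numbers stand for is not given in the sources used here. The p-values therefore measure the spread between these libraries, which may be technical. Only ENR+CV at day 0, KPT-330 at day 3 and both arms at day 6 had 2 libraries of the same day. In the tests of KPT-330 the spread thus also holds differences of the effect between days. In the comparison of early with late untreated libraries it also holds differences between days and media within a group.

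The authors' list of cells that passed their quality control held 19877 cells, of which 1996 were from ENR+CV, 9050 from control and 8831 from KPT-330 libraries. Library totals ran from 3458887 to 12433109 UMIs (unique molecular identifiers, each standing for 1 captured transcript), and the median per cell ran from 2676 to 8463 UMIs. The 2 day 6 control libraries stood apart in depth, at medians of 8463 and 2701 UMIs a cell. Values without day 6 are given below for several counts. Only 14 cell barcodes were shared over the 136 pairs of libraries, at most 1 in any pair. The 4 epithelial markers were detected in every group. Over all 17 libraries the 5 fibroblast markers summed to 93 UMIs and the 3 endothelial markers to 104. Of the 5 immune markers Ptprc, Cd3e and Cd79a gave 3, 4 and 2 UMIs, and the macrophage markers Cd68 and Lyz2 gave 152 and 2277.

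The 10 genes differed widely in abundance. Summed over the 17 libraries Phlda1 gave 30604 UMIs, Dusp5 12917, Dusp6 6210, Dusp4 5224, Spred1 3134, Spry1 1754, Spry2 1680, Etv4 962, Etv5 475 and Spry4 135. These UMIs are counted at transcript ends, so the totals are not divided by length. Spry4 was too low for the tests of KPT-330 and is given as a value only. Levels below are UMIs per 10000 UMIs of a library after TMM scaling, a correction that sets library totals so that most genes do not move between libraries. The TMM factors were 1.013 to 1.149 in the control libraries and 0.708 to 1.067 in the KPT-330 libraries. Without them the median gene was 0.26 lower with KPT-330 on the log2 scale, so every KPT-330 difference below is relative to that shift. For members in whole organoids the values from plain totals are given beside the calls. For the other pathway genes only counts with plain totals are given.

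**Figure D1:**
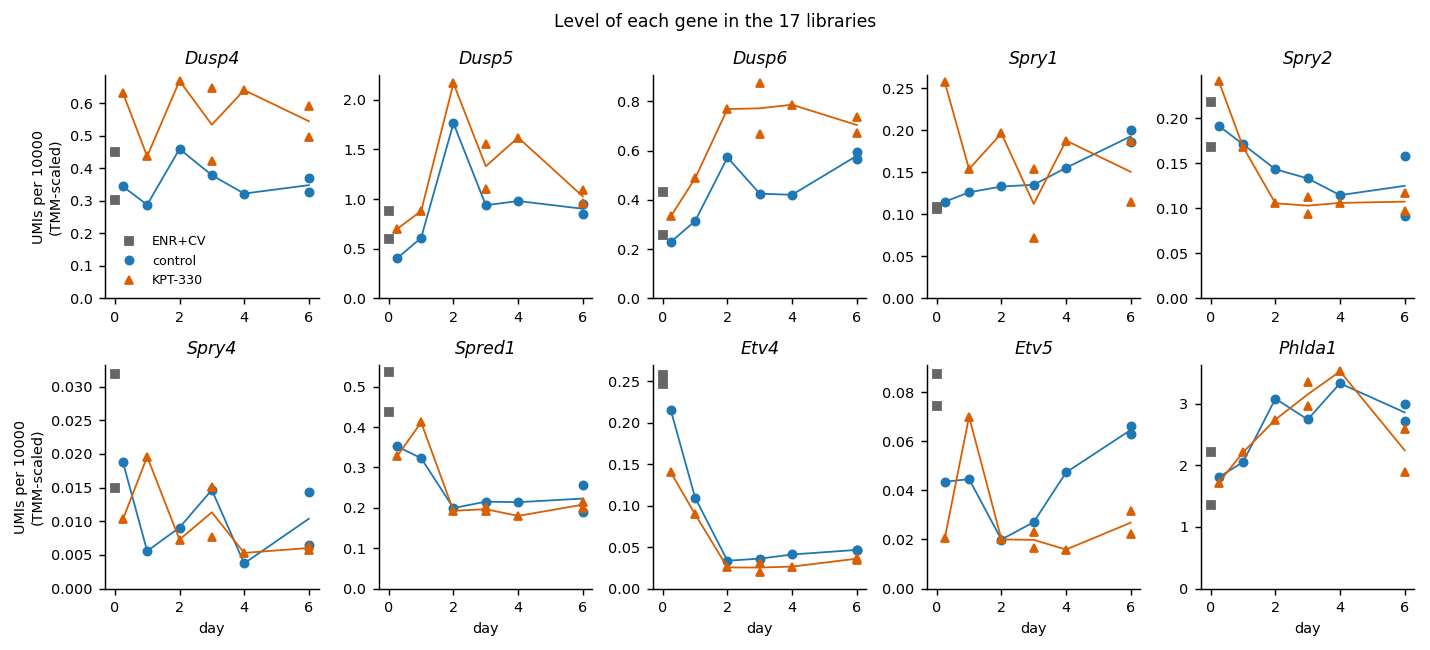
Level of each of the 10 genes (y axis, UMIs per 10000 after TMM scaling, linear, starting at 0) against day (x axis) in the 17 libraries: grey squares are ENR+CV, blue circles control, orange triangles KPT-330, and lines join the means of each day. Dusp4 and Dusp6 in KPT-330 libraries lie above the control libraries of the same day on all 6 days, while Etv4 and Spred1 are highest in the first days in both arms.

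Differentiation without KPT-330 was the first question: how these genes stood in the 4 untreated libraries of days 3, 4 and 6 (1, 1 and 2 libraries) against the 4 untreated libraries of days 0, 0.25 and 1 (ENR+CV 2, control 1 each). All 10 passed the filter on low counts, 4 rose (Dusp5, Dusp6, Spry1 and Phlda1), 3 fell (Spred1, Spry2 and Etv4), and Dusp4, Etv5 and Spry4 did not pass the test (edgeR quasi-likelihood, adjusted p under 0.05 over 12131 genes). Among all genes tested 24.1% were called higher and 24.6% lower, so counts of this size are close to the background. Of the 4 early libraries 2 came from ENR+CV and 2 from ENR+CD, and all late ones from ENR+CD. With ENR+CD libraries only, 5 members passed, and Spry1 and Spry2 did not (0.46 and −0.56, edgeR adjusted p = 0.126 and 0.0799). The median log2 change of the 10 was −0.14, against 0.015 over all genes. In libraries of whole organoids a change in the share of a cell type and a change in transcripts per cell cannot be told apart: between these groups stem III-like cells went from 14.4 to 49.3% of cells down to 3.60 to 5.37%, and Paneth-like cells from 0.565 to 2.11% up to between 19.9 and 49.5%.

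Etv4, an ETS factor of the PEA3 group, showed the largest difference of the 10. Its levels were 0.246 and 0.258 in the ENR+CV libraries, 0.215 in the day 0.25 control and 0.110 in the day 1 control, then 0.0361 at day 3, 0.0411 at day 4, and 0.0462 and 0.0470 at day 6. The groups did not overlap, and Etv4 was 4.84-fold lower late (log2 fold change −2.27, SE 0.27, edgeR adjusted p = 7.3e-05). Etv5, its close relative, was at 0.0743 and 0.0875 in ENR+CV and at 0.0434 and 0.0446 at days 0.25 and 1, against 0.0271, 0.0473, 0.0629 and 0.0662 late. These ranges overlap, and the difference of −0.29 (SE 0.34, edgeR adjusted p = 0.500) did not pass.

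Spred1, a membrane-associated inhibitor of Ras to RAF signalling, was at 0.438, 0.537, 0.352 and 0.323 early and at 0.215, 0.214, 0.256 and 0.190 late. All late libraries were below all early ones, with a log2 fold change of −0.90 (SE 0.18, edgeR adjusted p = 0.00155). Spry2, a Sprouty feedback inhibitor of receptor tyrosine kinases, was at 0.168 to 0.218 early and 0.0919 to 0.158 late, again without overlap, at −0.57 (SE 0.19, edgeR adjusted p = 0.0308). Spry1, of the same family, went the other way, from 0.106 to 0.126 early to 0.135 to 0.200 late (log2 fold change 0.58, SE 0.18, edgeR adjusted p = 0.0213). Its groups did not overlap either. Spry4 was listed at 0.00373 to 0.0319 in all untreated libraries, with a difference of −0.74 (SE 0.53, edgeR adjusted p = 0.265).

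Among the phosphatases, Dusp6, which dephosphorylates ERK in the cytoplasm, was at 0.259, 0.433, 0.229 and 0.314 early and 0.425, 0.421, 0.593 and 0.564 late. Only the second ENR+CV library reached the late range, and the log2 fold change was 0.70 (SE 0.21, edgeR adjusted p = 0.0145). Dusp5, a nuclear ERK phosphatase, was at 0.595, 0.875, 0.402 and 0.609 early and 0.938, 0.980, 0.850 and 0.955 late, at 0.59 (SE 0.19, edgeR adjusted p = 0.0245), and again only the second ENR+CV library reached the late range. With plain totals it was at 0.54 (edgeR adjusted p = 0.0684). Its highest level of the untreated series, 1.76, was at day 2, which is in neither group. Dusp4, a nuclear phosphatase of ERK and related kinases, lay at 0.288 to 0.45 early and 0.322 to 0.379 late (log2 fold change 0.02, 95% interval −0.29 to 0.33). Phlda1 was at 1.35, 2.22, 1.81 and 2.05 early and 2.74, 3.33, 2.99 and 2.73 late, all late libraries above all early ones (log2 fold change 0.68, SE 0.16, edgeR adjusted p = 0.00522). Etv4, Spred1 and Phlda1 passed whichever library was left out. Dusp6 was lost without the first day 6 control (0.58, edgeR adjusted p = 0.0548), and Dusp5 without the first ENR+CV library, the day 4 control or the second day 6 control (0.57 to 0.58, edgeR adjusted p = 0.0536 to 0.0591). Spry1 was lost without either ENR+CV or either day 6 library (0.46 to 0.54, edgeR adjusted p = 0.0509 to 0.0778). Spry2 was lost without the second ENR+CV library, the controls of day 0.25, 3 or 4, or the second day 6 control (−0.59 to −0.46, edgeR adjusted p = 0.0505 to 0.0922), so that 4 members remained without that last library. With both day 6 libraries left out, 3 of the 7 passed, again Spred1, Etv4 and Phlda1.

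The other genes of the pathway were taken from 9 lists of 71 genes arranged by role, of which 67 were tested. In the same comparison 19 rose, 9 fell and 39 did not pass, with a median log2 change of 0.26, against 0.015 over all genes. With day 6 left out 14 rose and 7 fell. Beside the main counts, 24.1% of all genes were called higher and 24.6% lower. The phosphatases that act mainly on JNK and p38 kinases rose in all 4 of 4 (Dusp1, Dusp8, Dusp10 and Dusp16), and Dusp10 had a log2 fold change of 3.15 (edgeR adjusted p = 4.63e-05). Of the 8 immediate early genes, the first transcripts induced by mitogens and also by tissue dissociation, 6 rose, among them Atf3 at 1.69 and Nr4a1 at 1.66 (edgeR adjusted p = 0.000749 and 0.000233). Of the 6 EGF family ligands tested, Egf alone rose, at 3.70 from a mean of 0.00578 to 0.0743 UMIs per 10000 (edgeR adjusted p = 1.83e-05). The genes that fell most were Ccnd1, the cyclin D1 of the G1 phase, at −2.31, and the phosphatase Dusp9 at −1.79 (edgeR adjusted p = 6.32e-05 and 0.00103). The summed level of the immediate early genes was 19.4 to 38.2 UMIs per 10000 early and 29.8 to 55.0 late, and its part in the changes of the members was not tested.

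The second question was what KPT-330 did at matched days. Over the 6 days with both arms, KPT-330 libraries held more of all 3 phosphatases: Dusp4 was 1.60-fold, Dusp6 1.5-fold and Dusp5 1.39-fold higher. Etv4 was 1.36-fold lower. Spry1, Spry2, Spred1, Etv5 and Phlda1 did not pass the test. So 3 of the 9 tested members were called higher and 1 lower, while 15% of the 11777 genes tested were called higher and 14.6% lower. The median log2 change over the 9 was −0.05, against 0.003 over all genes. The control libraries of days 0.25, 1, 3, 4 and 6 also serve in the comparison of early with late untreated organoids above.

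Among the members that RefSeq's promoter table covers, the sequences shown are those just before the start sites of Dusp5 and Dusp6, both called higher, because only the Dusp5 stretch holds a serum response element core. The table (GRCm38.p6) matched 6 of the 10 genes: Dusp5, Dusp6, Spry1, Spry2, Spred1 and Etv5. The Dusp5 stretch is 214 bases at chr19:53528895-53529108 and the Dusp6 stretch 250 bases at chr10:99262981-99263230, both on the plus strand of GRCm38, 5′ to 3′, and each ending at the base before the annotated gene body. Capitals mark 2 adjacent CArG boxes, the core bound by serum response factor.
Dusp5: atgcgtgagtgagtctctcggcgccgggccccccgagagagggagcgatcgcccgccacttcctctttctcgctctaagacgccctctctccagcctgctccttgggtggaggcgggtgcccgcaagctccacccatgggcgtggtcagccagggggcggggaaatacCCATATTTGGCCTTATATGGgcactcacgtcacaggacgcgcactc
Dusp6: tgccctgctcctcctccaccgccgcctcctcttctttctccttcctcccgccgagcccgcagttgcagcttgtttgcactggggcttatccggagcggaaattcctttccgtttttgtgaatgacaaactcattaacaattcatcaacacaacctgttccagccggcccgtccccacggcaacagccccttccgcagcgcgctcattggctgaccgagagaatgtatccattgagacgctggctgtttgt
The CArG boxes of Dusp5 start 82 and 72 bases before its RefSeq start. Of 32851 RefSeq promoters of 300 bases 1.63% hold a CArG box on either strand. The stretches were also searched on both strands for CCGGAA (ETS factors, in 14.9% of promoters), TGANTCA (AP-1, 7.81%) and TGACGTCA (CRE, 1.79%), with no match, which says only that these letters are not in these windows. None of these motifs overlaps another in the stretches shown. Neither match nor absence was tested against the expression values.

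Dusp4 (chr8:34807297-34819894, plus strand, GENCODE on GRCm38) was at 0.344, 0.288, 0.460, 0.379 and 0.322 in the control libraries of days 0.25, 1, 2, 3 and 4, and at 0.370 and 0.327 at day 6. With KPT-330 it was at 0.632, 0.437 and 0.669 at days 0.25, 1 and 2, at 0.422 and 0.646 at day 3, at 0.640 at day 4, and at 0.498 and 0.592 at day 6. KPT-330 was higher on 6 of 6 days, and only the day 2 control reached the KPT-330 range (log2 fold change 0.68, SE 0.10, edgeR adjusted p = 0.00067). With plain totals the change was 0.42 (edgeR adjusted p = 0.0143).

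Dusp6 (chr10:99263231-99267489, plus strand) was at 0.229, 0.314, 0.572, 0.425 and 0.421 in control at days 0.25 to 4 and at 0.593 and 0.564 at day 6. With KPT-330 it was at 0.333, 0.487 and 0.768 at days 0.25, 1 and 2, at 0.667 and 0.876 at day 3, at 0.786 at day 4, and at 0.735 and 0.672 at day 6. It was higher on 6 of 6 days, on top of a level that rose with time in both arms (log2 fold change 0.58, SE 0.097, edgeR adjusted p = 0.00127). With plain totals it was 0.32 (edgeR adjusted p = 0.0336).

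Dusp5 (chr19:53529109-53542431, plus strand) was at 0.402, 0.609, 1.76, 0.938 and 0.980 in control at days 0.25 to 4 and at 0.850 and 0.955 at day 6. With KPT-330 it was at 0.698, 0.879 and 2.17 at days 0.25, 1 and 2, at 1.11 and 1.56 at day 3, at 1.62 at day 4, and at 1.09 and 0.961 at day 6. Both arms peaked at day 2, and KPT-330 was higher on 6 of 6 days, by least at day 6 (0.19 on the log2 scale, against 0.80 at day 0.25). The fitted change was 0.47 (SE 0.099, edgeR adjusted p = 0.0045), but 0.20 with plain totals (edgeR adjusted p = 0.178), so the call for Dusp5 holds only relative to the shift of all genes. A gene is annotated on the strand opposite Dusp5, and whether the counting used strand is not given in the sources used here. The same holds for Spry1, Spry4 and Phlda1.

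Etv4 (chr11:101769742-101785371, minus strand) fell with time in both arms and was lower with KPT-330 on 6 of 6 days. The control levels were 0.215, 0.110, 0.0335, 0.0361 and 0.0411 at days 0.25 to 4 and 0.0462 and 0.0470 at day 6. The KPT-330 levels were 0.140, 0.0896 and 0.0255 at days 0.25, 1 and 2, 0.0306 and 0.0200 at day 3, 0.0265 at day 4, and 0.0349 and 0.0372 at day 6. The fitted log2 change was −0.45 (SE 0.14, edgeR adjusted p = 0.0272), or −0.68 with plain totals (edgeR adjusted p = 0.00505). This call was lost with DESeq2, with no filter on low counts, with all barcodes within the limits and with day 6 left out (−0.49 to −0.34, adjusted p = 0.0572 to 0.0836). It was also lost without the control library of day 0.25, 2, 3 or 4 or the KPT-330 library of day 0.25 or 4 (−0.47 to −0.42, edgeR adjusted p = 0.05 to 0.0647). Etv5 (chr16:22381309-22439719, minus strand) was at 0.0199 to 0.0662 in control and 0.0159 to 0.0700 with KPT-330, a change of −0.61 (SE 0.25, edgeR adjusted p = 0.0797). Etv5 did pass without the day 1 library of either arm (−0.85 for each, edgeR adjusted p = 0.0194 and 0.0189), with no filter on low counts (−0.62, edgeR adjusted p = 0.0457) and with plain totals (−0.87, edgeR adjusted p = 0.0211).

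The remaining members differed by less than the test could call. Spry1 was at 0.115 to 0.200 in control and 0.0714 to 0.257 with KPT-330, with a 95% interval of the log2 change from −0.22 to 0.58. The interval for Spry2 ran from −0.44 to 0.11, for Spred1 from −0.24 to 0.13 and for Phlda1 from −0.25 to 0.14. Spry4 was at 0.00373 to 0.0188 in control and 0.00529 to 0.0196 with KPT-330. With plain totals Spry2, Spred1, Etv5 and Phlda1 were called lower as well (log2 −0.41, −0.31, −0.87 and −0.33), so 2 members were then higher and 5 lower. Of all 11777 genes tested plain totals called 5124, and the share of calls that were higher moved from 50.7 to 8.82%.

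**Figure D2:**
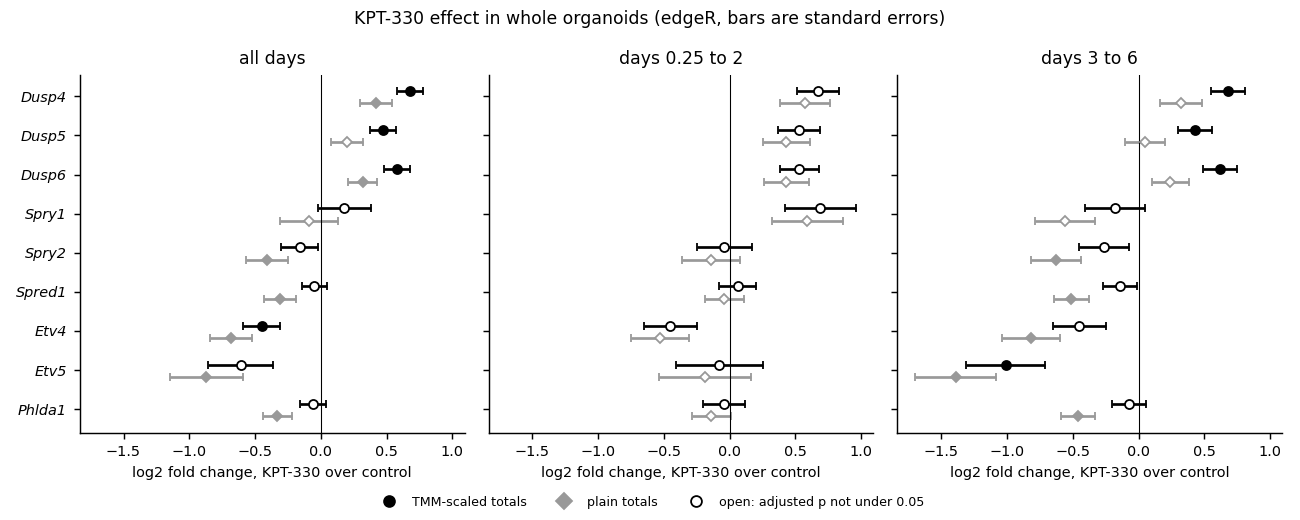
Log2 fold change of KPT-330 over control for the 9 members tested (x axis; bars are standard errors), over all days, days 0.25 to 2 and days 3 to 6, with TMM-scaled totals (black circles) and plain totals (grey diamonds); filled symbols have an adjusted p under 0.05 and open ones do not. Dusp4, Dusp5 and Dusp6 lie right of 0 in every panel, and plain totals shift every gene to the left.

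Split by time, no member passed at days 0.25 to 2, where each arm had 3 libraries and 0.365% of all genes were called higher and 0.178% lower. At an unadjusted p under 0.05 there were 5 of 9 members, beside 1811 of the 11777 genes tested. DESeq2 called 1 member, Dusp4, and 186 of all genes. Dusp4 was also called by edgeR without the first KPT-330 library of day 3 or the second of day 6 (0.67 for each, edgeR adjusted p = 0.0340 and 0.0486). The estimates there were 0.67 for Dusp4 (SE 0.16, edgeR adjusted p = 0.0859), 0.53 for both Dusp5 and Dusp6, and 0.69 for Spry1 (SE 0.27, edgeR adjusted p = 0.245). At days 3 to 6, with 4 control and 5 KPT-330 libraries, Dusp4 (0.68), Dusp6 (0.62) and Dusp5 (0.43) were called higher and Etv5 lower (edgeR adjusted p = 0.00314, 0.00399, 0.0265 and 0.0224), beside 16% and 14.2% of all genes. Dusp4 was at 0.322 to 0.379 in control and 0.422 to 0.646 with KPT-330, and Dusp6 at 0.421 to 0.593 and 0.667 to 0.876, so neither pair of groups overlapped. Etv5 was 2.02-fold lower late (log2 −1.01, SE 0.30), from 0.0271 to 0.0662 in control to 0.0159 to 0.0315. Etv5 was lost without the day 4 library of either arm or the first KPT-330 library of day 6 (−0.90 each time, edgeR adjusted p = 0.0689 to 0.0883). Dusp5 was lost without those 3, the day 3 control or the second KPT-330 library of day 3 (0.31 to 0.42, edgeR adjusted p = 0.0522 to 0.157). With plain totals Dusp4, Dusp5 and Dusp6 were at 0.32, 0.05 and 0.24 at days 3 to 6 and did not pass, while the median of all genes stood at −0.36. On that scale 0 members were called higher and 5 lower at days 3 to 6: Etv5 (−1.39), Etv4 (−0.82), Spry2 (−0.63), Spred1 (−0.51) and Phlda1 (−0.46). Of all 11777 genes 5729 were called on that scale, 6.44% of them higher, so most calls over all genes were lower as well.

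The late and the early effect were not shown to differ, in a test that recovered 4% of 1.5-fold and 45% of 2-fold changes in simulated data. The test of the difference called 0 members and 0% of 11777 genes in edgeR. At an unadjusted p under 0.05 there was 1 of 9 members, Spry1, beside 1283 of all genes. DESeq2 called 0 members and 54 of all genes. The difference was 0.01 for Dusp4 (95% interval −0.40 to 0.41), −0.93 for Etv5 (SE 0.45, edgeR adjusted p = 0.476) and −0.87 for Spry1 (SE 0.35, edgeR adjusted p = 0.398).

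Of the 67 pathway genes tested, 18 were called higher with KPT-330, 4 lower and 45 neither over all days. Their median log2 change was 0.09, against 0.003 over all genes. Beside these counts, 15% of all genes tested were called higher and 14.6% lower. Upstream, of 6 EGF family ligands Areg (0.88, SE 0.22) and Hbegf (0.64) rose, while none of 7 receptors passed over all days. At days 3 to 6 the EGF receptor gene Egfr did (0.42, edgeR adjusted p = 0.045). Among 5 restraints of the receptor Errfi1, an EGFR inhibitor (0.65), and Lrig3 (0.54) rose. In the core from Ras to ERK the genes that rose included the MEK gene Map2k2 (0.27), Hras (0.26) and the ERK gene Mapk3 (0.25). These changes are about the size of the 0.26 by which the median gene was lower with plain totals. None of 6 ERK-activated kinases and ETS partners passed.

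Downstream, 3 of 4 JNK and p38 phosphatases rose: Dusp10 at 1.01 (SE 0.17, edgeR adjusted p = 0.00118), Dusp1 at 0.95 (SE 0.16, edgeR adjusted p = 0.00116) and Dusp8 at 0.53. Of the 5 other feedback genes tested Spred3 fell, by 0.83 on the log2 scale (edgeR adjusted p = 0.00512). Of 7 other mitogen targets Emp1, a membrane protein, rose (0.79), and Ccnd1 (−0.55) and the ephrin receptor Epha4 (−0.96) fell. Of 8 immediate early genes 6 rose, with Atf3 at 1.08 (SE 0.15, edgeR adjusted p = 0.000485) and higher on 6 of 6 days.

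Because immediate early genes are also induced while tissue is dissociated, their summed level is given beside the phosphatases: 19.4 to 55.0 UMIs per 10000 in control (median 34.1) and 24.5 to 79.9 with KPT-330 (median 49.9). Its part in the differences of Dusp4, Dusp5 and Dusp6 was not tested. The 5 immune markers summed to 0.0376 to 0.285 UMIs per 10000 in control and 0.0432 to 0.797 with KPT-330, nearly all of it Lyz2, with Ptprc at or near 0 in every group. With plain totals 8 pathway genes were higher and 13 lower over all days, beside 5124 of all genes called, 8.82% of them higher. At days 0.25 to 2 none of the 67 passed. At days 3 to 6 it was 20 higher and 2 lower, beside 16% and 14.2% of all genes. With plain totals it was 5 and 20 at days 3 to 6, beside 5729 of all genes called, 6.44% of them higher.

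**Figure D3:**
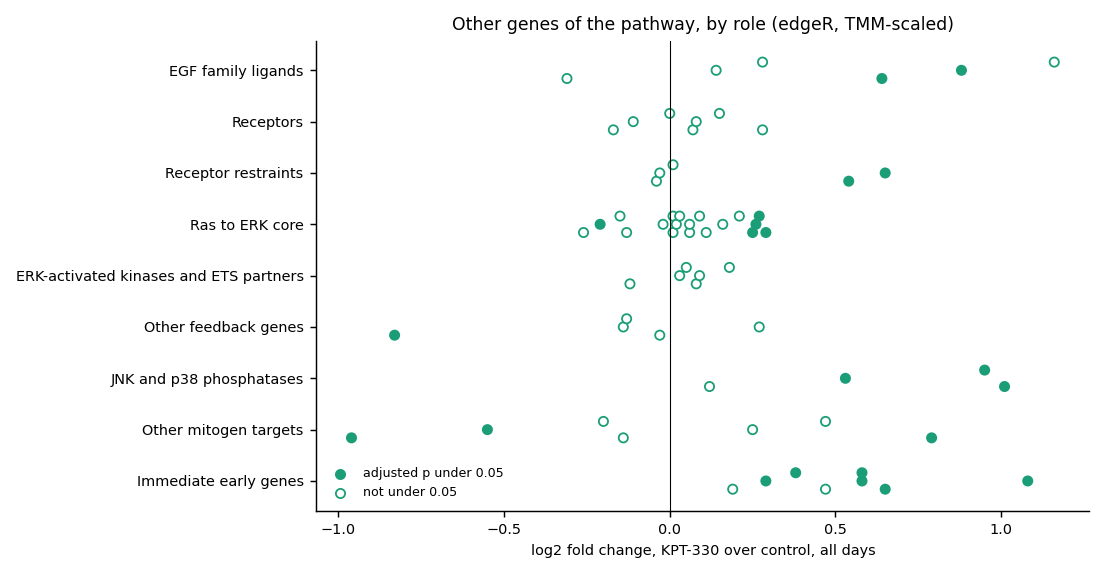
Log2 fold change of KPT-330 over control over all days (x axis, TMM-scaled, edgeR) for the 67 tested pathway genes, 1 circle a gene, grouped by role on the y axis (vertical scatter within a role only separates circles); filled circles have an adjusted p under 0.05. Of the filled circles 18 lie right of 0 and 4 left of it, and the receptors and the ERK-activated kinases have none.

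The third question was whether the KPT-330 difference was seen inside cell types. Cells were clustered with the listed pathway genes left out of the variable genes, and each cluster was named after the cell type whose published markers scored highest. These markers were chosen by the study on these same samples. Of 10 types, 8 could be tested, on UMIs summed per library where at least 20 cells were present. The share of types differed between the arms: the median share of stem I-like cells was 19.8% in control and 6.49% with KPT-330, of enterocyte-like cells 2.65 and 13.8%, and of Paneth-like cells 19.9 and 30.1%. These ranges overlap and their medians mix the days.

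Dusp4 was higher with KPT-330 in Paneth-like, stem I-like, stem II-like and enteroendocrine-like cells, and Dusp6 in stem I-like and enteroendocrine-like cells. Dusp5 was lower with KPT-330 in enterocyte-like cells, the type in which its level was highest. These 7 were all the calls among the members in the 8 reported types, by edgeR over all genes tested in each type. Whether the effect differed between types was not tested. The share of genes called in either direction was 4.26% in stem I-like, 1.02% in stem II-like, 0.633% in stem III-like, 1.12% in early enterocyte-like, 2.04% in enterocyte-like, 0.491% in early secretory-like, 4.20% in Paneth-like and 1.93% in enteroendocrine-like cells. Between 5 and 8 members passed the filter on low counts in each type.

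In Paneth-like cells, which secrete lysozyme and defensins, Dusp4 was at 0.159, 0.129 and 0.162 in control at days 2, 3 and 4 and at 0.260 and 0.209 at day 6. With KPT-330 it was at 0.338 at day 2, 0.280 and 0.337 at day 3, 0.367 at day 4, and 0.301 and 0.418 at day 6. Every KPT-330 library was above every control library (log2 fold change 0.89, SE 0.16, edgeR adjusted p = 0.00525), and the call held whichever library was left out. Most control cells of this type were in cluster 1 (1250 of 2177) and most KPT-330 cells in cluster 0 (1676 of 2728). Dusp6 in the same cells had a change of 0.11 (SE 0.15, edgeR adjusted p = 0.765).

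In stem I-like cells, marked by Lgr5 and Smoc2 among others, Dusp4 was at 0.150 to 0.337 in 6 control libraries (median 0.237) and 0.259 to 0.930 in 6 KPT-330 libraries (median 0.467), higher on 5 of 5 days (log2 fold change 0.97, SE 0.20, edgeR adjusted p = 0.00401). The highest value, at day 1, rests on 11 UMIs in 26 cells. Without the day 2 library of either arm Dusp4 was at 0.91 (edgeR adjusted p = 0.0646). Dusp6 in these cells was at 0.318 to 0.639 in control and 0.49 to 1.35 with KPT-330, higher on 4 of 5 days (0.66, SE 0.18, edgeR adjusted p = 0.0311). That call was lost with DESeq2 (0.71, adjusted p = 0.0518) and with each cell given the type of its highest marker score (0.58, edgeR adjusted p = 0.0844). It was also lost without the day 1 or day 4 library of either arm, the day 3 control, or the second KPT-330 library of day 3 or of day 6 (0.50 to 0.69, edgeR adjusted p = 0.0530 to 0.273).

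In stem II-like cells Dusp4 was at 0.405, 0.233 and 0.478 in control and 0.912, 0.481 and 0.771 with KPT-330 at days 0.25, 1 and 2, without overlap (1.07, SE 0.22, edgeR adjusted p = 0.00536), though DESeq2 gave an adjusted p of 1 for a change of 1.02, and without any library of day 0.25 or 1 the call was lost (0.92 and 1.06, edgeR adjusted p = 0.438 and 0.0959). None of this type's markers was among the 10 leading genes of its cluster. In enteroendocrine-like cells, the hormone-producing lineage, Dusp4 was at 0.748 to 1.25 in 6 control libraries and 1.10 to 2.18 in 7 KPT-330 libraries (0.60, SE 0.14, edgeR adjusted p = 0.0265). Dusp6 there was at 0.384 to 1.29 and 0.718 to 1.84 (0.57, SE 0.13, edgeR adjusted p = 0.0356). Both were higher on 5 of 5 days, and their ranges overlap. Dusp4 lost the call without the day 4 library of either arm, either day 6 control or the first KPT-330 library of day 6 (0.50 to 0.61, edgeR adjusted p = 0.0544 to 0.131). Dusp6 lost it without the day 1 or day 4 library of either arm, the day 3 control, the second day 6 control, the second KPT-330 library of day 3 or the first of day 6 (0.49 to 0.56, edgeR adjusted p = 0.0594 to 0.149). Most control cells of this type were in cluster 7 (876 of 1504), led by Neurog3, and most KPT-330 cells in cluster 9 (507 of 853), led by Gcg and Cck.

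In enterocyte-like cells, the absorptive lineage, Dusp5 was at 5.0, 4.16 and 5.48 in control at days 2, 3 and 4 and at 1.84 and 3.57 at day 6. With KPT-330 it was at 3.91 at day 2, 1.32 and 2.01 at day 3, 2.24 at day 4 and 1.30 at day 6. It was lower on each of the 4 days (log2 fold change −1.01, SE 0.20, edgeR adjusted p = 0.0138), while Dusp5 over all cells was higher. Without the day 3 control it was at −0.87 (edgeR adjusted p = 0.108), and without the day 4 library of either arm at −0.93 (edgeR adjusted p = 0.0946). With at least 50 cells a library the change was −0.81 (edgeR adjusted p = 0.224), and with each cell given the type of its highest marker score −0.65 (edgeR adjusted p = 0.0548). A cluster of 164 enterocyte-like cells, 162 of them from KPT-330 libraries and with a median of 25% mitochondrial UMIs, was left out after the data were seen: Dusp5 was then at −1.0 (edgeR adjusted p = 0.0041), and Dusp6 and Phlda1 in this type passed as well, for 9 calls in place of 7. Dusp4 in enterocyte-like cells had a change of 0.00 (SE 0.23).

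With plain totals in each type the calls of Dusp6 and of Dusp4 in enteroendocrine-like cells were lost and Phlda1 in enterocyte-like cells was gained, for 5 calls. The 4 calls of Dusp4 or Dusp5 in Paneth-like, stem I-like, stem II-like and enterocyte-like cells remained. Dusp4 in stem III-like cells was at 0.75 (SE 0.22, edgeR adjusted p = 0.156), in early secretory-like cells at 0.70 and in early enterocyte-like cells at 0.46, with none past the threshold. Etv4 passed that filter only in stem II-like cells and in those of stem III (−0.28 and −0.48, edgeR adjusted p = 0.859 and 0.639). Etv5 and Spry4 passed the filter on low counts in none of the 8 types.

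**Figure D4:**
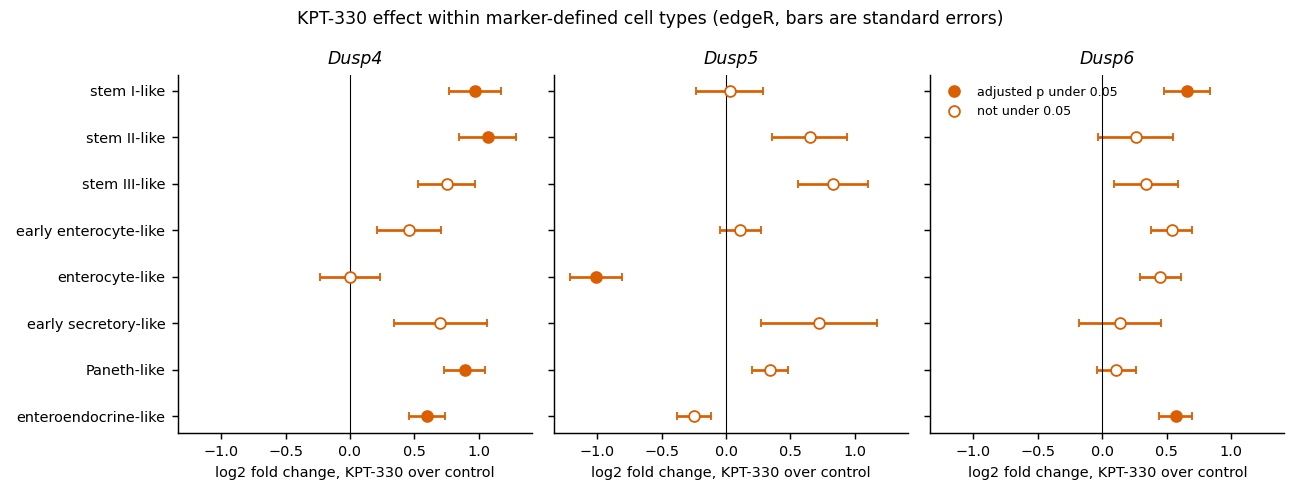
Log2 fold change of KPT-330 over control (x axis, bars are standard errors) for Dusp4, Dusp5 and Dusp6 in each of the 8 reported cell types (y axis). The fits were edgeR on UMIs summed per library, and filled circles have an adjusted p under 0.05. Dusp4 is at or right of 0 in all 8 types, and Dusp5 in enterocyte-like cells is the only filled circle left of 0.

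The last question was in which cells the genes stood highest without KPT-330. Levels are here plain UMIs per 10000 UMIs of a type's cells in a library, as mean ± SD over the libraries with at least 20 such cells, from the 9 untreated libraries. They are compared between types for 1 gene at a time. Early Paneth-like cells are shown but not ranked, because 1 of their clusters had more leading markers of another type than of its own. The 9 types with a value come from different libraries and days, neighbouring types in each order have library ranges that overlap, and no test was made. The 20 most abundant genes took 44.6% of the UMIs of Paneth-like cells and 23.6 to 33.6% in other types, and every other level is relative to that.

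Dusp4 was highest in enteroendocrine-like cells, at 0.951 ± 0.21 (SD, n = 8), followed by enterocyte-like cells at 0.491 ± 0.19 (SD, n = 5), and lowest in Paneth-like cells at 0.190 ± 0.040 (SD, n = 5). Within the libraries that held both of a gene's leading types, the first was above the second in 5 of 5 for Dusp4, 3 of 3 for Dusp5, 3 of 5 for Dusp6, 5 of 5 for Spry1, 4 of 6 for Spry2, 4 of 4 for Spred1, 4 of 8 for Etv4 and 3 of 6 for Etv5. Dusp5 was highest in the absorptive cells: 4.06 ± 1.4 (SD, n = 5) in enterocyte-like and 2.26 ± 1.2 (SD, n = 7) in early enterocyte-like cells, against 0.268 ± 0.13 (SD, n = 9) in stem III-like cells, a ratio of 15.1 from the highest to the lowest type. Dusp6 varied less, from 0.993 ± 0.31 (SD, n = 5) in enterocyte-like and 0.795 ± 0.31 (SD, n = 8) in enteroendocrine-like cells to 0.256 ± 0.090 (SD, n = 8) in stem II-like cells.

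The ETS factors and Spred1 stood highest in the stem types. Etv4 was at 0.211 ± 0.10 (SD, n = 9) in stem III-like cells, which carry the proliferation markers Mki67 and Top2a, and at 0.207 ± 0.12 (SD, n = 8) in stem II-like cells, with 1 UMI in all 372 enterocyte-like cells. Etv5 was at 0.111 ± 0.087 (SD, n = 6) in stem I-like and 0.10 ± 0.057 (SD, n = 9) in stem III-like cells, with 2 UMIs in enterocyte-like cells. Neither order among the stem types held beyond the spread. Spred1 was at 0.600 ± 0.19 (SD, n = 9) in stem III-like, 0.456 ± 0.19 (SD, n = 4) in early secretory-like and 0.453 ± 0.20 (SD, n = 8) in stem II-like cells, down to 0.0657 ± 0.031 (SD, n = 5) in enterocyte-like cells, a ratio of 9.13.

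Spry1 and Spry2 were both highest in stem I-like cells, at 0.237 ± 0.063 (SD, n = 6) and 0.234 ± 0.051 (SD, n = 6). Spry1 was next in Paneth-like cells, at 0.182 ± 0.035 (SD, n = 5), and lowest in enteroendocrine-like cells, at 0.0582 ± 0.051 (SD, n = 8). Spry2 was next in stem III-like cells, at 0.212 ± 0.078 (SD, n = 9), and lowest in enterocyte-like cells, at 0.0876 ± 0.071 (SD, n = 5). Phlda1 had its highest means in early secretory-like cells, at 4.64 ± 0.83 (SD, n = 4), and in stem I-like cells, at 4.51 ± 0.63 (SD, n = 6), followed by 3.69 ± 0.86 (SD, n = 5) in Paneth-like cells, against 1.07 ± 0.57 (SD, n = 7) in early enterocyte-like cells. Spry4 had at most 23 UMIs in any type, so no order can be read from it.

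**Figure D5:**
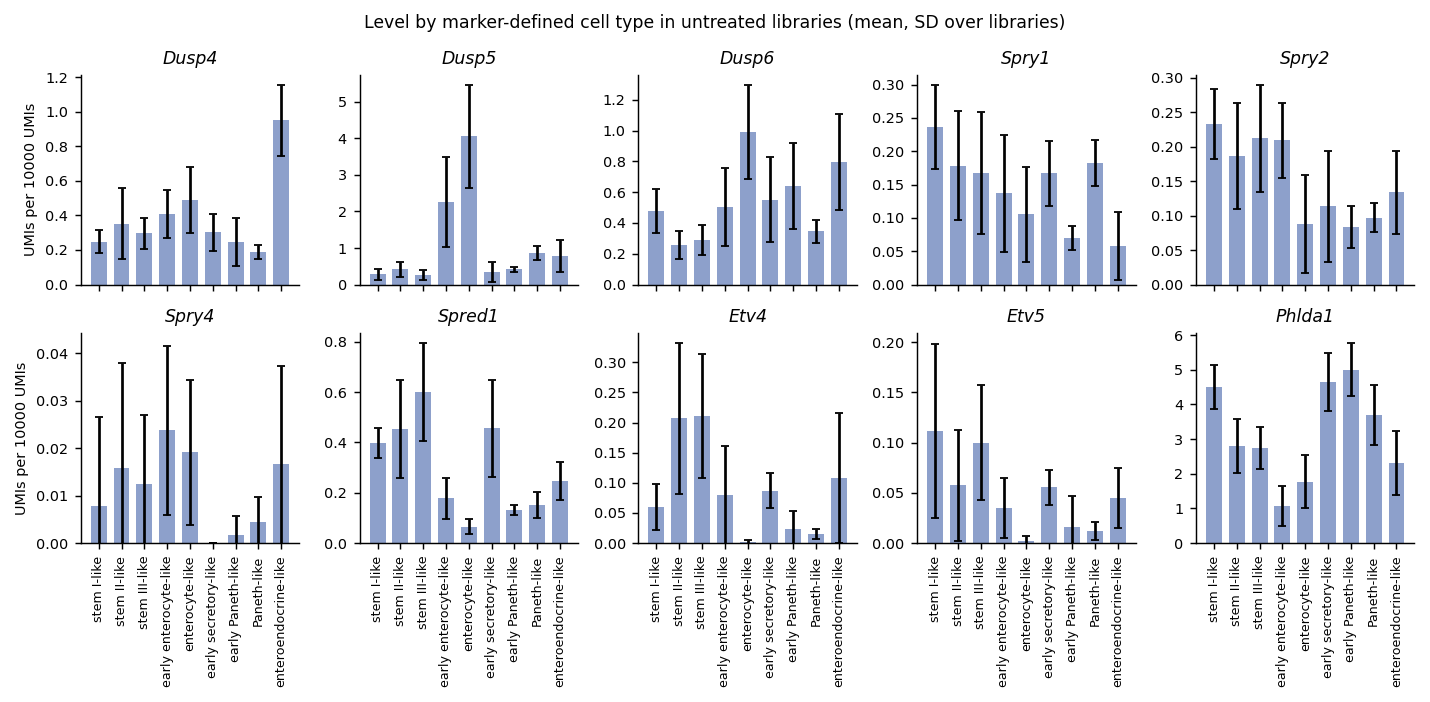
Level of each of the 10 genes (y axis, plain UMIs per 10000 UMIs of the type's cells, linear, from 0) in 9 marker-defined cell types (x axis) of untreated organoids; bars are means over the libraries with at least 20 cells of the type and black lines are 1 SD, which is cut at 0 where it would pass below it. The Dusp5 bar of enterocyte-like cells stands at 4.06, the Dusp4 bar of enteroendocrine-like cells at 0.951, and the Etv4 bar of enterocyte-like cells at 0.00184.

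Across the 17 libraries the genes did not move as 1 group. The log2 levels of Spred1 and Etv4 had a Pearson r of 0.94, those of Spry2 and Spred1 0.90 and those of Dusp5 and Dusp6 0.83, while Dusp6 and Etv4 were at −0.80 (n = 17 libraries, which share their days and arms, so these are descriptions with no test). The genes whose level was most like the mean of the 10, among 10508 genes with at least 500 UMIs, were Daxx (r = 0.85), Ccdc23 (0.85), Lsm1 (0.84), Qtrtd1 (0.84) and Mff (0.84).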

How the data were processed

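Seq-Well S3 libraries were sequenced from 17 organoid samples. Per the study's methods, the authors aligned reads to mm10 with STAR in the Drop-seq pipeline and deposited UMI counts per gene and cell, without normalization. The authors had removed cells by genes, UMIs, mitochondrial percent and called doublets; doublets were not called again here. The 19877 cells named in the authors' merged table were kept of 26229 barcodes. The counts as deposited were summed per library, over all cells and over each cell type.

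Sums were tested with edgeR 4.0.16 (quasi-likelihood, TMM scaling, filterByExpr, day as a covariate for KPT-330) in R 4.3.3, with Benjamini-Hochberg adjustment over all genes tested and a threshold of 0.05. Late was compared with early in untreated libraries, KPT-330 with control, and the 2 periods with each other. The 95% intervals are a normal approximation from the same fits, with the SE derived from the F statistic. They can be narrower than the test implies. Cells were clustered with Seurat 5.3.0 (SCTransform, 9 components, resolution 0.45) without the members and pathway lists among the variable genes. Early Paneth-like cells were fitted, but left out of the results because 1 of their clusters had 3 leading markers of another type and 2 of its own. That rule was not in the plan of the tests. Counts at 17 libraries and the stated totals limit precision, most for Etv5 and Spry4. The members and all lists were chosen with earlier results of these data known. All members were described, and of the pathway lists at most 4 genes rising and 4 falling by size of change per comparison were to be named; further list members are named only to account for a count. Scripts were tested on simulated data with 200 changed genes. The KPT-330 fit over all days recovered 67% of 1.5-fold and 97% of 2-fold changes, with 4.09% wrong calls. For differentiation these were 15%, 70% and 7.61%, and for the difference between late and early 4%, 45% and 9.26%.

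Alternatives were RLE size factors, DESeq2 1.42.0, no filter, other cell filters and labels, a replicate block and each library left out. Added after the data were seen were plain library totals, genes listed in all 17 files, day 6 left out and the small enterocyte-like cluster left out. The merged table's values differ from the library tables in 15 of 198770 member values, all Spry4, and only its cell names were used. Some genes of the pathway lists count in the totals but are not reported here by name.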

Additional observations from a re-analysis of the deposited data

Results flagged for a closer look

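Of 110 groups of at least 4 libraries, each holding the level of 1 gene, 11 had a library that Dixon's test flagged. In these the gap to the nearest of the others was a larger part of the group's range than that test allows. Chance flags about 1 in 20 groups, and groups in which all other libraries are at 0 are flagged by a single UMI. All 11 were groups of untreated libraries in 1 cell type, in UMIs per 10000 UMIs of the type's cells.

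Single high values among libraries at 0 were those of Spry4 in stem I-like cells at day 1 (0.0463), Spry4 in early Paneth-like cells at day 2 (0.00871), Etv4 in enterocyte-like cells in the first day 6 control (0.00920) and Etv5 in enterocyte-like cells at day 2 (0.0104).

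High values with some others above 0 were Spry4 in stem II-like cells of the first ENR+CV library (0.0626, others up to 0.0262), Etv5 in early Paneth-like cells of the second day 6 control (0.0707, others up to 0.00871) and Etv4 in enteroendocrine-like cells at day 0.25 (0.356, others 0.0279 to 0.164). In Spred1 the second day 6 control stood high in enterocyte-like cells (0.120, others 0.0460 to 0.0574), and in Etv5 the first day 6 control stood high in stem III-like cells (0.224, others 0.0397 to 0.131).

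Low values were Dusp4 in early secretory-like cells at day 2 (0.142, others 0.332 to 0.371) and Phlda1 in stem I-like cells at day 1 (3.29, others 4.46 to 5.07).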

How the results depend on the processing

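Depth limits Etv5 (475 UMIs) and Spry4 (135 UMIs) most, and KPT-330 differences are relative to a shift of all genes. Over all days the number of members called with KPT-330 was 4, with 3 to 5 when single libraries were left out and 7 with plain totals. At days 0.25 to 2 it was 0, with 0 to 1 when single libraries were left out, 1 with DESeq2, 4 with no filter on low counts and 1 with all barcodes within the limits. At days 3 to 6 it was 4, with 5 (all lower) with plain totals and 2 to 4 when single libraries were left out (2 without the day 4 library of either arm or the first KPT-330 library of day 6). For the difference between late and early it was 0 throughout, except 1, Spry1, with no filter. For differentiation it was 7, with 4 to 7 when single libraries were left out (4 without the second day 6 control) 5 with ENR+CD libraries only and 3 with day 6 left out. Within cell types it was 7, with 3 to 8 when single libraries were left out (3 without the day 4 library of either arm), 5 with DESeq2, with plain totals or with the highest marker score, 4 with at least 50 cells and 9 without the small enterocyte-like cluster. The highest cell type, early Paneth-like cells included, was the same for 7 of 10 members when cells took their highest marker score and for 9 of 10 at resolution 0.8. The cause of these changes was not tested. The genes called at days 0.25 to 2 numbered 64, against 688 with no filter, 186 with DESeq2 and 167 without day 6. For the difference they numbered 0, against 349 with no filter, 54 with DESeq2 and 166 without day 6. Over all days plain totals called 5124 genes in place of 3481 (8.82% of them higher, against 50.7%), and at days 3 to 6 5729 in place of 3556 (6.44% against 53.0%). At days 0.25 to 2 the higher share was 36.5% against 67.2%. Over all alternatives there were 1080 values for members in whole organoids. Of these 1015 kept their direction and side of the threshold, 45 lost it, 20 passed it and 0 reversed. Of 494 for named pathway genes 458 kept it, and of 119 for members within cell types 80 did. Of 236 counts of listed pathway genes 35 were classed as moved, and some of the others differ as well.

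With a replicate block, the number of members called was 4 over all days, 0 at days 0.25 to 2, 4 at days 3 to 6, 0 for the difference and 5 for differentiation, where Dusp5 and Spry2 were lost. In the check of pairing, the differences between replicates 1 and 2 at day 6 had a Pearson r of 0.53 between control and KPT-330 over 10516 genes; with 1 such pair of groups the samples share only a number. No replicate block was fitted within cell types, and levels across types have no test.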
